A study of Homo sapiens with 12 samples.

Results

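Glucose uptake, glycolysis, and lactate handling were followed through 32 genes in TIGK cells, a line of human gingival keratinocytes that was immortalized with telomerase (hTERT). The genes were chosen by symbol and cover glucose transporters, the enzymes from hexokinase to pyruvate kinase, lactate dehydrogenases, monocarboxylate transporters, and the pyruvate dehydrogenase step. All 32 were found among the 58735 genes of the count table. In each comparison 31 of them passed edgeR's filter on low counts, and PDK4, with 59 counts over 12 libraries, did not. All cells were grown with 48 mM D-glucose in a base medium that held no Arg. By design the groups thus differed in Arg and in time and not in the glucose supplied. The glucose left in the medium at collection was not reported. Control cells received no Arg and were collected after 24 or 48 h, and treated cells received 500 μM L-arginine (Arg) for 24 or 48 h. There were 3 libraries, named A, B, and C, in each of these 4 groups, and all came from 1 cell line. Nothing in the labels says that the letters mark separate cultures, so the p-values measure the spread between these libraries, which may be technical.

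Glycolysis splits glucose into pyruvate. Glucose enters through facilitated transporters and is trapped by hexokinase, and the committed step is that of phosphofructokinase, whose strongest activator is made and removed by the bifunctional PFKFB enzymes. Pyruvate is either reduced to lactate by lactate dehydrogenase and exported by monocarboxylate transporters, or passed into mitochondria through the pyruvate dehydrogenase complex, which the PDK kinases switch off. Proliferating epithelial cells use much of their glucose this way even with oxygen present, and HIF-1, whose binding site usually holds ACGTG, and MYC, which binds the E-box CACGTG, are known regulators of many of these genes.

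The promoters of the 4 genes that were called at 24 h are shown because a shared short motif could be looked for there. Each runs from 250 bases before to 50 bases after the start of the gene in RefSeq (GRCh38.p14), written 5′ to 3′ on the strand of the gene, with every ACGTG, or its reverse complement CACGT, in capitals. PFKFB3 lies at chr10:6202682-6202981 on the plus strand, LDHA at chr11:18394313-18394612 on the plus strand, SLC16A3 at chr17:82228792-82229091 on the plus strand, and LDHB at chr12:21657793-21658092 on the minus strand.
PFKFB3: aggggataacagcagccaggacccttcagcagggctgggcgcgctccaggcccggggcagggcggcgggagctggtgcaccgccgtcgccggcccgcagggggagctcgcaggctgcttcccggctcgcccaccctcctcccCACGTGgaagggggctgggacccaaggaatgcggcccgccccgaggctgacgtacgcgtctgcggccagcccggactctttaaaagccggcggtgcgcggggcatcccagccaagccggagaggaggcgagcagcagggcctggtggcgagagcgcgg
LDHA: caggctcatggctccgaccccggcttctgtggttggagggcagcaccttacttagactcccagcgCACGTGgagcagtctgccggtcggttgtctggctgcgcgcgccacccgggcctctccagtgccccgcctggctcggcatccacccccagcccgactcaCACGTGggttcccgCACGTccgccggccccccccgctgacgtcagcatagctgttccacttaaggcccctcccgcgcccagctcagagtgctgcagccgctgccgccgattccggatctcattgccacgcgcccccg
SLC16A3: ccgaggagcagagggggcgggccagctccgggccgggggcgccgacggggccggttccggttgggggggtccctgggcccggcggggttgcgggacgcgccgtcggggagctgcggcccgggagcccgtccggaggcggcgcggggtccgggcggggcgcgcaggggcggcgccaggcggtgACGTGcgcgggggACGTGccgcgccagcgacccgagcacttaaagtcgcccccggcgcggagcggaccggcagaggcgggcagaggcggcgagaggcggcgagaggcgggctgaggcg
LDHB: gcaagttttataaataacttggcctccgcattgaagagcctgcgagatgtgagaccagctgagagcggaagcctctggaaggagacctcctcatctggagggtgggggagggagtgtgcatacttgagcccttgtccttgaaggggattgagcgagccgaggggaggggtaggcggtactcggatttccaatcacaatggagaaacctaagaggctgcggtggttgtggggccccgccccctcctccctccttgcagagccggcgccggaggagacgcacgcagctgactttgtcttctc
The LDHA window held 5 matches to ACGTG on either strand, 2 pairs of which form a CACGTG, at 185, 184, 87, 86, and 73 bases before the start. The PFKFB3 window held 2 matches that form a single CACGTG, at 108 and 107 bases before the start, and the SLC16A3 window held 2, at 68 and 55 bases before the start. No match was found in the LDHB window, which says only that these letters are not there. A promoter was matched for 29 of the 32 genes (SLC2A3, PFKFB2, and SLC16A1 had none). The matched start was 0 bases from that of the canonical transcript in GENCODE v44 for the 4 genes shown. It was 3283 bases away for PFKM, 1627 for PGAM1, 747 for GAPDH, 422 for PFKP, 217 for HK1, and 204 for GPI. Their windows may thus not be those of the main start. ACGTG was in 15 of the 29 windows and in 21.4% of 35116 promoters of the same length, and CACGTG was in 6 of the 29 and in 7.26% of all. A match is a sequence description and not a measured binding site.

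The libraries held between 16542243 and 19040964 counts, of which the 32 genes took between 1.89% and 2.14%. Keratinocyte markers (KRT5, KRT14, and 8 others) summed to between 44012 and 56185 CPM (counts scaled by the size of the library and its TMM factor) in every library. Endothelial, immune, and melanocyte marker lists each summed to at most 6.41 CPM, with TYR at 0 counts in all libraries. Fibroblast markers, mainly DCN and COL1A1, summed to between 30.2 and 54.4 CPM at 24 h and between 72.7 and 103 CPM at 48 h. Control replicate B at 48 h stood apart from the other libraries. It gave the highest between-replicate chi-square per degree of freedom, 23.9 against a lowest value of 3.66, and mitochondrially encoded genes took 1.55% of its counts against 0.624% to 1.31% in the other 11 libraries. Counts of calls that use the 48 h controls are therefore given with and without it. In bulk RNA, fewer cells of a type and less RNA per cell cannot be told apart.

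The enzymes of the lower part of glycolysis were the most abundant of the set. On the scale of CPM per kb of exonic length, averaged over the 12 libraries, GAPDH was highest at 1538, followed by ENO1 at 947, PKM at 423, TPI1 at 342, LDHA at 330, PGAM1 at 223, and PGK1 at 111. ENO1, GAPDH, and PKM together made up 64.7% to 69.2% of the CPM of the set in each library. The lactate transporter SLC16A1 followed at 59.6, then the isomerase GPI at 52.7, the hexokinase HK1 at 49.8, and the glucose transporter SLC2A1 at 36.7 CPM per kb. LDHB, ALDOC, PFKP, PGM1, HK2, ALDOA, PFKM, PDHB, and PFKL lay between 18.4 and 11.1 CPM per kb. The lower end was made of regulators and of isoforms known from other tissues, with SLC16A3 at 6.55, PFKFB3 at 3.26, the neuronal enolase ENO2 at 1.24, PFKFB4 at 0.723, and PDK4 at 0.0595 CPM per kb. The exonic length was the one deposited with the counts, 10680 bases for GPI, 6210 for LDHA, and 8995 for SLC16A3. Their canonical transcripts in GENCODE v44 hold 4125, 2241, and 2599 bases. The order of the genes, also within families, can thus change with the length used.

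**Figure D1:**
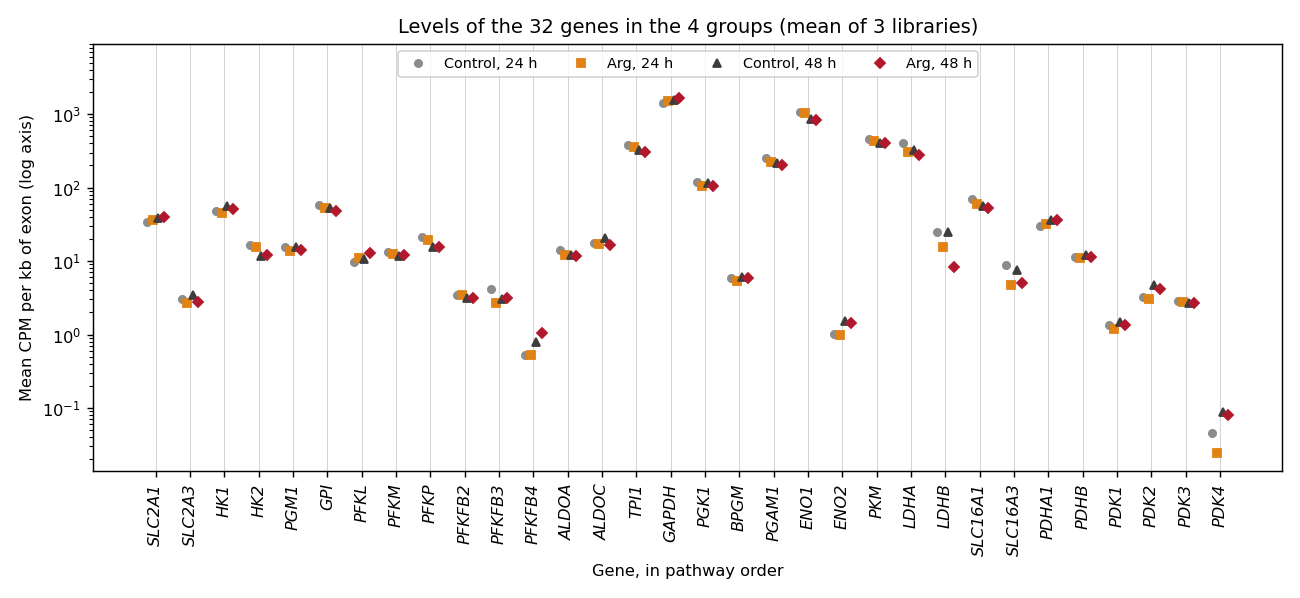
Mean level of each of the 32 genes in control and Arg-treated cells at 24 and 48 h, in CPM per kb of exonic length on a log axis, with 3 libraries behind each point. The 4 groups lie close together for most genes, GAPDH is at the top (1538 CPM per kb over all libraries), PDK4 at the bottom (0.0595), and LDHB with Arg at 48 h is set apart from its other groups.

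Among the families, a single isoform carried most of the transcript in several cases. ENO1 was far above ENO2, SLC2A1 above SLC2A3, and HK1 above HK2, whereas the 3 phosphofructokinases PFKP, PFKM, and PFKL all lay between 17.8 and 11.1 CPM per kb. Over the 12 libraries the highest CPM was 3.56 times the lowest for LDHB, 3.18 times for PFKFB4, and 2.57 times for SLC16A3, the widest ranges among the 31 genes that were tested. For GAPDH and PKM it was 1.23 and 1.22 times.

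The counts of LDHB and ALDOA carry a limit of annotation. In GENCODE v44, 997 of the 1303 bases (76.5%) of the canonical LDHB transcript are also exons of a read-through gene on the same strand (AC010197.2, ENSG00000285854), which had 0 counts in all libraries. For ALDOA, 1472 of 1640 bases (89.8%) are shared with AC093512.2 (ENSG00000285043), which had 465 counts against 10640 for ALDOA. How reads from exons of more than 1 gene were counted is not given in the sources used here. With 0 counts for AC010197.2, reads from the exons it shares with LDHB do not appear to have been credited to both genes. The counts of LDHB and ALDOA may thus hold only part of their reads. Their levels against other genes are uncertain, and so is the part of the transcript to which a change in their counts refers. The bases of LDHB that are not shared lie in the first exon at chr12:21657799-21657842 and in the last exon at chr12:21635645-21635709 and chr12:21635342-21635538. On the opposite strand, CSNK1D (29240 counts) shares 18.5% of the canonical transcript of SLC16A3, and SAMD14 (7 counts) shares 62.8% of that of PDK2, and the strand setting of the counting is not stated either. Pseudogene rows of the set, 106 rows for 13 genes, held at most 0.599% of the counts of the gene itself.

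**Figure D2:**
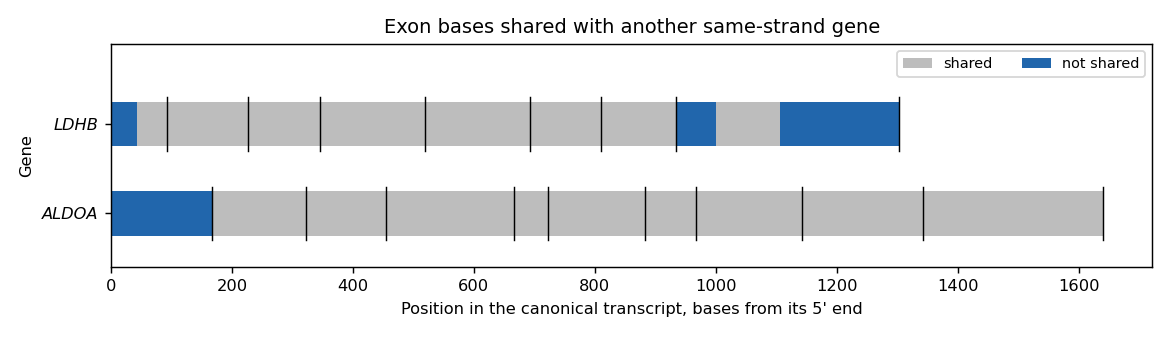
Canonical transcripts of LDHB (1303 bases) and ALDOA (1640 bases), 5′ end at the left, with bases shared with an exon of another gene on the same strand in grey, unshared bases in blue, and exon ends as black lines. Most of both transcripts is shared, and the unshared bases of LDHB lie in its first and last exons.

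To ask how Arg alters this pathway under high glucose, the treated libraries were set against the controls of the same time with edgeR's quasi-likelihood test. Each p was adjusted after Benjamini and Hochberg over every gene tested, and a gene was called at an adjusted p under 0.05. At 24 h, 4 of the 31 genes were downregulated by Arg and 0 were upregulated. Of all 14279 genes tested, 3.84% were called lower and 2.79% higher. The 4 were PFKFB3 at the control of phosphofructokinase, both lactate dehydrogenase subunits LDHA and LDHB, and the lactate exporter SLC16A3. The median log2 fold change of the set was −0.12, against 0.0030 over all genes, and 26 of 31 estimates were below 0 under TMM, DESeq2 size factors, and library size alone. At an unadjusted p under 0.05, 8 genes were lower and 0 higher, where 11.9% and 10.8% of all genes were. DESeq2 called 3 lower and 0 higher, where it called 4.52% of all genes lower and 3.46% higher. Of the cell type markers, DCN (−0.70) and ITGA6 (−0.40) were called lower with Arg at 24 h, and their part in these results was not tested.

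At the entry of glucose no transcript was called. SLC2A1, the main glucose transporter of epithelial cells, was at 159, 167, and 151 CPM in control replicates A, B, and C and at 165, 170.0, and 172 CPM with Arg, a log2 fold change of 0.088 (adjusted p = 0.531). HK2, the inducible hexokinase, was at 104, 86.6, and 109.8 CPM in control and 94.5, 94.6, and 92.3 CPM with Arg (log2 fold change −0.10, adjusted p = 0.571). The groups overlapped for both genes. The higher-affinity transporter SLC2A3, HK1, the isomerase GPI, and PGM1, which links glucose 6-phosphate to glycogen, had log2 fold changes between −0.16 and −0.13 and were lower in all 3 Arg libraries than in all 3 controls, without passing the test.

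PFKFB3, which makes fructose 2,6-bisphosphate and so activates phosphofructokinase, was at 25.1, 23.7, and 26.9 CPM in the 24 h controls and at 14.3, 19.4, and 16 CPM with Arg. All 3 Arg libraries were below all 3 controls. The log2 fold change was −0.61 ± 0.13 (SE, n = 3), or 0.655 of the control level, with an adjusted p of 0.00806. It stayed past the threshold under every alternative fit, with adjusted p-values between 0.000252 and 0.0466. Its relatives did not pass the test. PFKFB4 was at 2.55, 4.52, and 2.72 CPM in control and 2.25, 2.91, and 4.46 CPM with Arg, an interval of −0.66 to 0.62 on the log2 scale, and PFKFB2 gave 0.011. Of the phosphofructokinase subunits, PFKL was at 83.0, 93.6, and 83.0 CPM in control and 89.0, 103, and 101 CPM with Arg, with overlap between the groups (log2 fold change 0.17, adjusted p = 0.259), and PFKP was at 110.0, 87.8, and 107 and 91.3, 99.4, and 89.2 CPM (−0.12, adjusted p = 0.467). PFKM gave −0.11.

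The enzymes from aldolase to pyruvate kinase differed little at 24 h, and none was called. GAPDH, which makes the first NADH of the pathway and is often used as a reference gene, was at 4440.1, 4248, and 4147 CPM in control and 4452, 4413, and 4581 CPM with Arg (log2 fold change 0.066, 95% interval −0.081 to 0.21). ENO1, the main enolase, was at 5925, 5299.7, and 5488 and 5503, 5378, and 5495 CPM (−0.031, interval −0.18 to 0.12). PKM, the pyruvate kinase of non-hepatic tissue, was at 3972, 3841, and 3856 and 3715, 3652, and 3785 CPM (−0.067, interval −0.21 to 0.078). For ENO1 and GAPDH the groups overlapped, while the 3 PKM values with Arg were all below the controls. The remaining 7 enzymes of this stretch (ALDOA, ALDOC, TPI1, PGK1, PGAM1, BPGM, and ENO2) had log2 fold changes between −0.21 and −0.015.

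The downregulation at 24 h included the lactate end of the pathway. LDHA, the muscle-type subunit, whose enzyme is known for turning pyruvate to lactate (chr11:18394388-18408425 in the deposited coordinates), was at 2689.7, 2362, and 2513 CPM in control and 2048, 1785, and 1904 CPM with Arg. Each Arg library was below each control, by a log2 fold change of −0.40 ± 0.079 (SE, n = 3; adjusted p = 0.00518, and between 3.29e-06 and 0.0409 over the alternatives). SLC16A3, or MCT4, a proton-coupled exporter of lactate (chr17:82228397-82261129), was at 94.5, 68.5, and 75.8 CPM in control and 36.8, 45.7, and 43.9 CPM with Arg. This was the largest of the called changes at 24 h, a log2 fold change of −0.92 ± 0.12 or 0.529 of control (adjusted p = 0.000124), again with no overlap between the groups and past the threshold in every alternative. The related carrier SLC16A1, or MCT1, was at 378, 335, and 397 CPM in control and 364, 301, and 297 CPM with Arg, with overlap and an adjusted p of 0.183.

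LDHB, the heart-type subunit (chr12:21635342-21757857), was at 78.0, 64.6, and 78.9 CPM in the 24 h controls and at 69.0, 36.4, and 34.3 CPM with Arg. Arg replicates B and C were far below the controls, and replicate A lay among them. The log2 fold change was −0.67 ± 0.18 (SE, n = 3; adjusted p = 0.0379). This call was lost in DESeq2 (log2 fold change −0.66, adjusted p = 0.241, where the alternatives ran from 7.14e-09 to 0.241) and when any of control replicate A, control replicate C, Arg replicate B, or Arg replicate C was left out. Leaving out single libraries gave log2 fold changes between −1.07 and −0.49, and the value of −1.07, without Arg replicate A, had an adjusted p of 7.48e-05.

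At the pyruvate dehydrogenase step, 0 genes were called at 24 h. PDK2, a kinase that inhibits the complex, was at 16.8, 21.9, and 15.4 CPM in control and 15.5, 15.5, and 18.9 CPM with Arg, and PDHA1, a catalytic subunit of the complex, was at 133, 140.0, and 136 and 137, 150.0, and 147 CPM. The groups overlapped for both, with log2 fold changes of −0.12 and 0.083. PDK1, PDK3, and PDHB gave −0.17, −0.037, and −0.044. Counted over the set, 10 genes had all 3 Arg libraries below all 3 controls at 24 h and 0 had them above, where 13.4% and 12.9% of all genes tested did so.

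**Figure D3:**
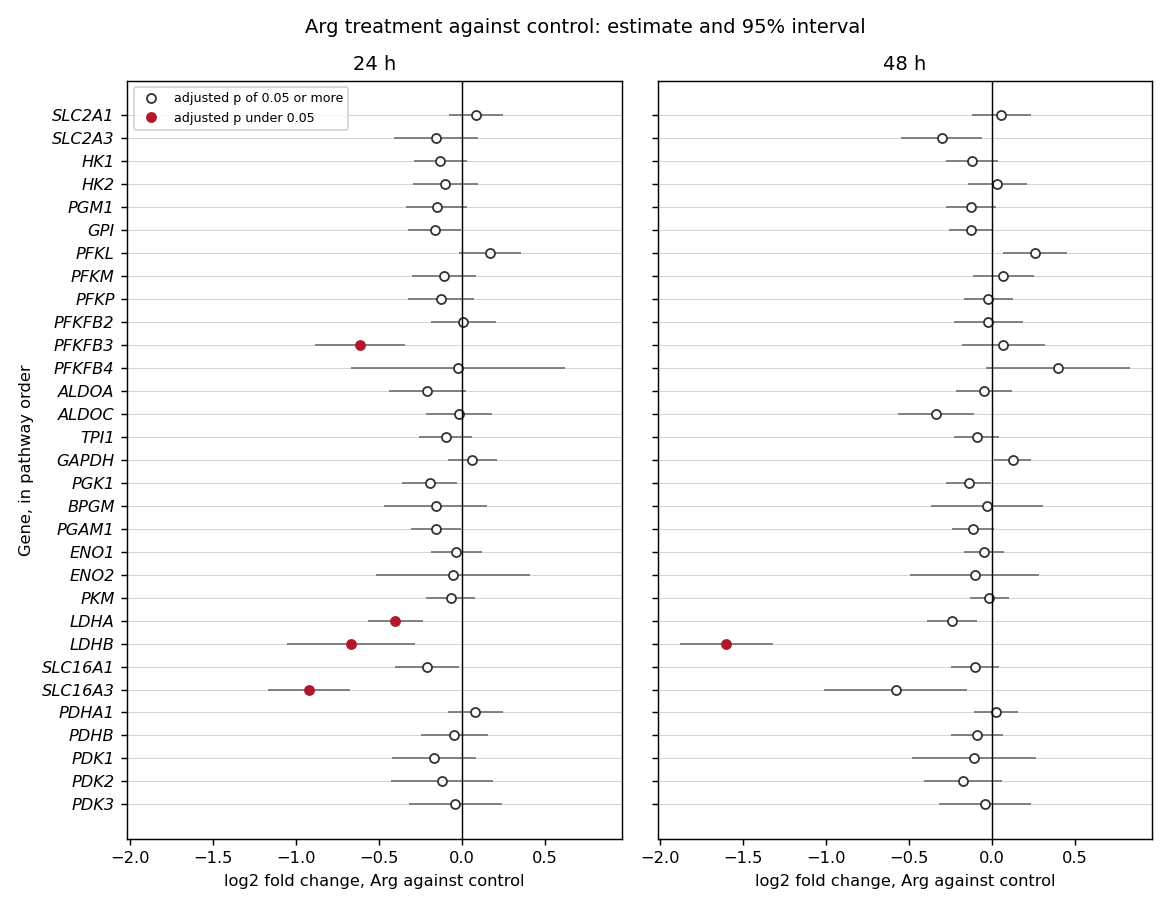
Log2 fold change (Arg against control) of the 31 tested genes at 24 h and 48 h in pathway order, with 95% intervals from edgeR; filled red points have an adjusted p under 0.05. PFKFB3, LDHA, LDHB, and SLC16A3 are filled at 24 h, and LDHB is the only filled point at 48 h, at −1.60.

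At 48 h, LDHB was the only gene of the 31 that was downregulated by Arg, and 0 were upregulated, where 0.117% of the 14562 genes tested were called lower and 0 were called higher. LDHB was at 83.9, 57.3, and 81.1 CPM in control and at 24.7, 25.2, and 23.6 CPM with Arg. The Arg values lay close together, and every one was below every control. The log2 fold change was −1.60 ± 0.13 (SE, n = 3), or 0.33 of control, with an adjusted p of 0.000174. It was called under every alternative, and leaving out single libraries gave values between −1.75 and −1.5.

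The other genes called at 24 h were less uniform at 48 h. LDHA was at 2115, 1853, and 2126 CPM in control and 1802, 1777, and 1587 CPM with Arg, with no overlap between the groups but an adjusted p of 0.196 (log2 fold change −0.24). SLC16A3 was at 76.2, 42.0, and 86.4 CPM in control and 43.9, 41.4, and 51.8 CPM with Arg, a log2 fold change of −0.58 ± 0.20 with an adjusted p of 0.24. Control replicate B was at the level of the Arg libraries while replicates A and C were well above them. Without replicate B, the log2 fold change of SLC16A3 was −0.83 with an adjusted p of 4.11e-07, over all alternatives the adjusted p ran from 9.16e-08 to 0.696, and with the replicate letter as a block it was 0.0309. PFKFB3 was at 19.2, 19, and 17.4 CPM in control and 17.9, 18.8, and 21.7 CPM with Arg, with overlap, at 0.068 (interval −0.18 to 0.32).

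**Figure D4:**
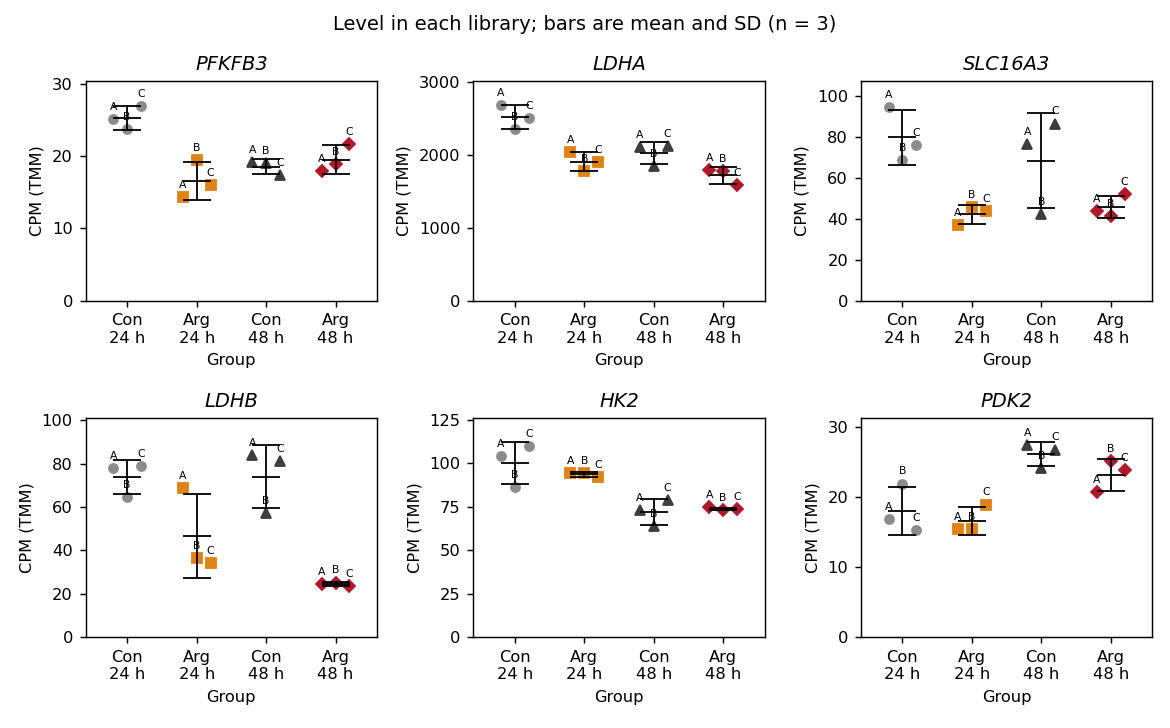
Level of PFKFB3, LDHA, SLC16A3, LDHB, HK2, and PDK2 in each of the 12 libraries in CPM (TMM), with letters naming the replicates, and bars for the mean and SD of 3 libraries. With Arg at 48 h the LDHB values of 24.7, 25.2, and 23.6 CPM are below all other libraries, and control replicate B at 48 h is low for SLC16A3 and LDHB.

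SLC2A1 and PKM were not called at 48 h, and their groups overlapped. SLC2A1 was at 179, 197, and 162 CPM in control and 199.7, 185, and 176 CPM with Arg (0.056 on the log2 scale), and PKM was at 3605, 3257, and 3525 and 3314, 3504, and 3482 CPM (−0.015). GAPDH was at 4493, 4824, and 4412 CPM in control and 4942, 5119, and 4936 CPM with Arg, and PFKL, the liver-type phosphofructokinase subunit, was at 95.4, 109.6, and 85.0 and 121, 116, and 111 CPM. GAPDH and PFKL were the 2 genes of the set with all 3 Arg libraries above all controls (8.56% of all genes), with log2 fold changes of 0.12 and 0.26 and adjusted p-values of 0.317 and 0.241. On the lower side 8 genes did not overlap (SLC2A3, GPI, PGK1, PGAM1, LDHA, LDHB, PDHB, and PGM1; 8.51% of all genes). The median of the set was −0.090 on the log2 scale against 0.0018 over all genes, and 23 of 31 estimates were below 0. At an unadjusted p under 0.05, 6 genes were lower and 2 higher, where 7.49% and 5.94% of all genes were. DESeq2 called LDHB alone lower and 0 genes higher, where it called 0.989% of all genes lower and 0.275% higher.

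Leaving out control replicate B at 48 h changed the number of calls more than any other library. SLC2A3, HK1, GPI, ALDOC, TPI1, LDHA, LDHB, and SLC16A3 were then called lower (8 genes, 8.17% of all genes) and PFKL and GAPDH higher (2 genes, 7.76% of all genes). These counts rose together with the count over all genes.

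The difference in the Arg effect between 24 and 48 h was tested as an interaction of Arg and time in a single model of the 12 libraries, and 0 of the 31 genes passed (0.0132% of 15148 genes did). At an unadjusted p under 0.05 there was 1 positive term (3.06% of all genes) and 2 negative terms (3.8%). The interaction of PFKFB3 was 0.68 (adjusted p = 0.321), that of LDHB was −0.93 (adjusted p = 0.428), and that of ALDOC was −0.32 (adjusted p = 0.708). DESeq2 also called 0 (0.066% of all genes were higher and 0.0858% lower). Without the filter on low counts, LDHB passed with an adjusted p of 8.97e-08, and the other alternatives gave between 0.0529 and 0.754. The calls of PFKFB3, LDHA, and SLC16A3 at 24 h alone are thus not shown to differ from 48 h.

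The balance between isoforms was taken as the ratio of their length-scaled CPM within each library, which does not depend on library scaling. The size of every ratio depends on the gene lengths used, while its log2 difference between groups does not. The size of the ratios of LDHB to LDHA and of ALDOC to ALDOA is uncertain. Most exon bases of LDHB (76.5%) and ALDOA (89.8%) are shared with another gene, and their counts may hold only part of their reads. The ratio of LDHB to LDHA was 0.0826, 0.0643, and 0.0794 in the 48 h controls A, B, and C and 0.0285, 0.0296, and 0.0309 with Arg. The Arg libraries were all below the controls, with a mean difference of −1.34 on the log2 scale (exact permutation test, two-sided, p = 0.1, the smallest that 3 against 3 can give) and of −1.45 without control replicate B. At 24 h the ratio was 0.0604, 0.0569, and 0.0653 in control and 0.0701, 0.0425, and 0.0376 with Arg, and the groups overlapped. The ratio of SLC16A3 to SLC16A1 at 24 h was below the control range in all Arg libraries, at 0.0598, 0.0896, and 0.0872 against 0.148, 0.120, and 0.113 (difference −0.70, exact permutation p = 0.1). For SLC2A3 to SLC2A1 at 24 h the difference was −0.24, also without overlap (exact permutation p = 0.1). These 3 were the ratios without overlap among 18 tests (9 ratios at 2 times), none of which can pass a correction, with adjusted values of 0.415 or more. The ratios of the hexokinases, phosphofructokinases, aldolases, enolases, and PFKFB enzymes overlapped between Arg and control at both times.

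The time course was compared within each treatment to show what the Arg effects are set against. From 24 to 48 h in control cells, 2 genes of the set rose (PDK2 and PDHA1) and 7 fell (HK2, PFKP, PFKFB3, PGAM1, ENO1, LDHA, and SLC16A1), where 9.9% of the 14449 genes tested rose and 10% fell. From 24 to 48 h with Arg, 6 rose (HK1, PFKL, PFKFB4, GAPDH, PDK2, and PDHA1) and 5 fell (HK2, PFKP, TPI1, ENO1, and LDHB), where 14.3% of 14398 genes rose and 14% fell. The median log2 change of the set was −0.060 in control and −0.026 with Arg, against 0.012 and 0.00092 over all genes. Scaling by library size alone moved the median of all genes to 0.072 in control and 0.058 with Arg, and then 4 of the set rose and 6 fell in control (12.8% and 6.98% of all genes), and 8 rose and 4 fell with Arg (17.8% and 10.1%). Of 4 fibroblast markers tested, 2 also rose with time, DCN by a log2 value of 1.08 in control and 1.61 with Arg and COL1A1 by 0.97 and 0.80, while COL1A2 and COL3A1 had 2 and 14 counts over all libraries. Of 2 endothelial markers tested, 1 rose in control and 2 with Arg, and the list summed to between 0.757 and 3.01 CPM at 24 h and between 4.09 and 6.41 CPM at 48 h. Of 10 keratinocyte markers, 4 rose and 2 fell in each treatment. The part of these markers in the results was not tested.

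HK2 was at 73.1, 64.2, and 79.0 CPM in the 48 h controls and 74.7, 73.2, and 73.6 CPM with Arg at 48 h, below the 24 h values of the same treatment in every library. The log2 change was −0.47 ± 0.11 in control (adjusted p = 0.0108) and −0.34 ± 0.072 with Arg (adjusted p = 0.00127). PFKP, the platelet-type phosphofructokinase subunit, was at 74.7, 72.7, and 79.4 CPM in control and 72.4, 76.3, and 75.2 CPM with Arg at 48 h. It changed by −0.42 in control and −0.32 with Arg (adjusted p = 0.0109 and 0.00325), again with no overlap between the times. ENO1 was at 4685, 4228, and 4733 CPM in control and 4225, 4538, and 4469.6 CPM with Arg at 48 h, changes of −0.29 and −0.31 (adjusted p = 0.0136 and 0.000306). All 6 libraries at 48 h were below all 6 at 24 h for each of HK2, PFKP, and ENO1.

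At the pyruvate dehydrogenase step, PDK2 and PDHA1 were called higher at 48 h in both treatments. PDK2 was at 27.3, 24.1, and 26.8 CPM in control and 20.7, 25.1, and 23.8 CPM with Arg at 48 h, and rose by 0.53 ± 0.14 in control and by 0.48 ± 0.12 with Arg on the log2 scale (adjusted p = 0.0208 and 0.00538). PDHA1 was at 164, 166, and 156 CPM in control and 164, 164, and 168 CPM with Arg at 48 h, and rose by 0.25 and 0.19 (adjusted p = 0.028 and 0.0392). For both genes the 48 h libraries were above the 24 h libraries of the same treatment. Their calls depended on the fit. With a library left out in control, both were called only without replicate B at 24 h or replicate B at 48 h. With Arg, PDK2 was called each time, and PDHA1 only without Arg replicate B at 24 h. PDHA1 was not called without the filter on low counts in either treatment, or with the replicate block with Arg. PDHB gave 0.088 and 0.041, PDK1 0.12 and 0.18, and PDK3 −0.06 and −0.067, without a call. PDK4, a kinase known from fasting and fat use, had between 0 and 0.726 CPM in any library.

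Some genes were called in a single treatment. LDHB fell with time in the Arg-treated cells by 0.93 ± 0.18 on the log2 scale (adjusted p = 0.000668), with all 48 h values below all 24 h values, while the control gave 0.0081 (adjusted p = 0.973). PFKFB4, a PFKFB isoform known as a HIF target, was at 4.93, 4.25, and 5.31 CPM in control and 7.14, 6.73, and 5.24 CPM with Arg at 48 h. With Arg it rose by 0.99 ± 0.25 (adjusted p = 0.00523), and in control it gave 0.57 ± 0.26 (adjusted p = 0.15). In control LDHA, PFKFB3, and SLC16A1 fell by 0.31, 0.44, and 0.31 on the log2 scale (adjusted p = 0.0154, 0.0176, and 0.0227), and with Arg they gave −0.15, 0.24, and −0.20 without a call. SLC16A1 was at 302, 276, and 317 CPM in control and 267, 282, and 287 CPM with Arg at 48 h. The test of these differences is the interaction above, which none of them passed.

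**Figure D5:**
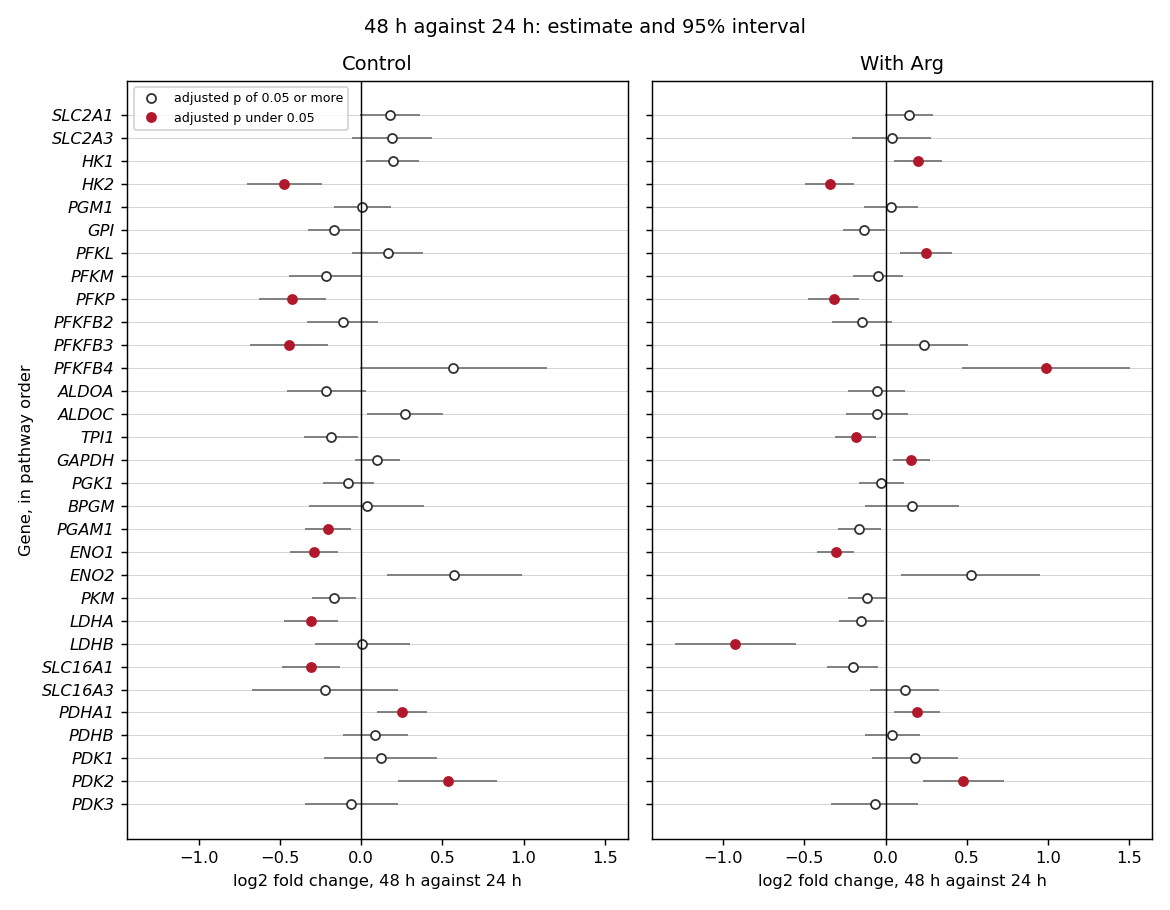
Log2 fold change from 24 h to 48 h of the 31 tested genes in control cells and in Arg-treated cells, with 95% intervals from edgeR; filled red points have an adjusted p under 0.05. HK2, PFKP, and ENO1 lie to the left of 0 and PDK2 and PDHA1 to the right in both panels, and LDHB is filled with Arg only, at −0.93.

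The number of calls over time in control changed with the libraries left out, and so did the number over all genes. Without control replicate A at 24 h, 0 genes of the set were called in either direction (2.85% of all genes rose and 2.74% fell). Without control replicate C at 24 h, 0 rose and ENO1 alone fell (3.34% and 3.36%). Without control replicate B at 24 h, 3 rose and 7 fell (10.7% and 11.6%). Without control replicate A at 48 h, 0 rose and 5 fell (6.17% and 6.22%), and without replicate C at 48 h, 0 rose and 5 fell (7.78% and 7.67%). Without replicate B at 48 h, 4 rose and 6 fell (7.81% and 8.6%), with HK2, PFKP, ENO1, PDK2, and PDHA1 among the called genes. The log2 changes moved less, and over these 6 fits they ran from −0.33 to −0.24 for ENO1 (called in 5), from −0.57 to −0.40 for HK2, from −0.52 to −0.36 for PFKP, and from −0.36 to −0.25 for LDHA (called in 4 each). With Arg, leaving out a library gave between 2 and 5 genes that rose and between 4 and 7 that fell. Of all genes, 10.4% to 12.4% then rose and 9.31% to 12.9% fell. PFKFB4 and PDK2 were among the risers and HK2, PFKP, ENO1, and LDHB among the others each time. In control 5 genes of the set had all 48 h libraries above all 24 h libraries and 10 had them below (19.2% and 19.7% of all genes). With Arg these counts were 8 and 10 (21.1% and 21.2%).

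Neighbouring pathways were described from lists of their genes, whose counts at 24 h stand beside 3.84% of all genes called lower and 2.79% called higher. At 24 h, 0 of 27 tested genes on a list of 46 other glycolysis genes and 0 of 10 pentose phosphate genes were called with Arg, with medians of −0.076 and −0.0032 on the log2 scale. Of 18 tested HIF factors and HIF targets outside glycolysis, 5 were downregulated and 0 upregulated (median −0.20). The 5 included the growth factor VEGFA (−0.97, adjusted p = 1.27e-05), the carbonic anhydrase CA12 (−0.70, adjusted p = 0.0106), the prolyl hydroxylase subunit P4HA1 (−0.67, adjusted p = 0.000552), and the mitophagy receptor BNIP3 (−0.49, adjusted p = 0.0024). Of 8 MYC and glucose-sensing genes, 2 were downregulated (median −0.19). These were the arrestin-domain genes TXNIP (−1.31, adjusted p = 6.49e-07), which restrains glucose uptake, and ARRDC4 (−0.51, adjusted p = 0.0135), both known to respond to glucose.

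Single genes were called lower in 3 further lists at 24 h. SUCLA2 of the TCA cycle gave −0.30 (1 of 19, median −0.083), UGP2, which makes UDP-glucose, gave −0.51 (1 of 8 glycogen genes, median −0.074), and UAP1 of the hexosamine route gave −0.66 (1 of 10 hexosamine and polyol genes, median −0.14). At 48 h, 0 genes of any of these 7 lists were called with Arg, with medians between −0.084 and 0.0094, where 0.117% of all genes were called lower. Without control replicate B, an alternative for the lists that was chosen after seeing the data, 3 of 27 other glycolysis genes, 5 of 19 TCA cycle genes, 3 of 8 glycogen genes, and 3 of 10 hexosamine and polyol genes were called lower and 0 of each higher. Of the pentose phosphate genes 1 of 10 was then lower and 2 higher, of the HIF list 1 of 19 was lower (VEGFA) and 1 higher (NDRG1), and of the MYC and glucose-sensing genes 2 of 8 were lower (MYC and TXNIP) and 1 higher (MLXIP). In that fit 8.17% of all genes were lower and 7.76% higher. TXNIP was at 98.3, 36.4, and 96.0 CPM in the 48 h controls A, B, and C and at 45.2, 49.0, and 40.2 CPM with Arg, so that control replicate B was below all Arg libraries and the other 2 controls were above them. No list had a called interaction in the main edgeR fit, and the lists were not counted in the alternative fits of the interaction.

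Over time the neighbouring lists together had calls in both directions. Of all genes, 9.9% rose and 10% fell in control, and 14.3% and 14% did with Arg. In control, 2 of 26 other glycolysis genes rose and 0 fell. These counts were 1 and 3 of 10 pentose phosphate genes and 0 and 1 of 19 TCA cycle genes. For 8 glycogen genes they were 0 and 2, and for 10 hexosamine and polyol genes 1 and 3. For 8 MYC and glucose-sensing genes they were 1 and 3. With Arg they were 1 and 2 of 27 other glycolysis genes, 3 and 3 pentose phosphate genes, and 2 and 2 TCA cycle genes. Of the 18 tested genes of the HIF list, 6 rose and 3 fell in control (5 and 3 of 19 without control replicate B at 48 h), and 6 rose and 0 fell with Arg. NDRG1 rose by 0.85 in control and 1.00 with Arg, and BNIP3L by 0.70 and 0.78. VEGFA fell in control by 0.59. In the 48 h controls A, B, and C, NDRG1 was at 296, 597, and 278 CPM and VEGFA at 60.1, 43.4, and 67.2 CPM. The sizes of their changes in control thus rest partly on replicate B. Both genes were called in the same direction without it. MYC, the transcription factor, fell by 0.74 in control and by 0.82 with Arg, and H6PD, the hexose 6-phosphate dehydrogenase of the endoplasmic reticulum, rose by 1.03 and 1.15. PYGB, a glycogen phosphorylase, fell by 0.58 and 0.56, and UAP1 by 0.87 and 0.30. Of the 46 other glycolysis genes, SLC2A10 rose by 1.24 and 0.85. With Arg, 2 glycogen genes rose and 2 fell, 2 hexosamine and polyol genes rose and 4 fell, and 0 MYC and glucose-sensing genes rose and 2 fell. Without control replicate B at 48 h, 3 of 28 other glycolysis genes rose in control and 0 fell. The counts were then 1 and 2 for pentose phosphate genes and 1 and 4 for MYC and glucose-sensing genes. Those of the other 3 lists stayed the same, where 7.81% of all genes rose and 8.6% fell.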

How the data were processed

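RNA was sequenced from TIGK cells in 4 groups of 3 libraries. The authors filtered the paired-end reads with fastp, aligned them to GRCh38/hg38 by STAR, summarised them by featureCounts, and deposited the resulting raw, unnormalized counts per gene. Tool versions, annotation release, strandedness, and the treatment of reads shared between genes are not given in the sources used here. All count columns were used (0 left out). The libraries held 16542243 to 19040964 counts, and a low gene such as PDK4 (59 counts) could not be tested.

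Libraries were grouped by the labels. Each comparison was fitted on its own 6 libraries with edgeR 4.0.16 in R 4.3.3 (TMM, filterByExpr, quasi-likelihood test, no block), and the interaction on all 12. Benjamini-Hochberg adjustment covered every gene tested, and a call is an adjusted p under 0.05. The standard errors and 95% intervals are those of the log2 fold change. Isoform ratios were compared with exact permutation tests (SciPy 1.17.1). DESeq2 1.42.0, DESeq2 size factors, library size only, 2 other filters, a replicate block, all 12 libraries in 1 model, and leaving out each library were the alternatives. Values in every library are given for the 12 called genes with the smallest p and for SLC2A1, HK2, PFKFB3, GAPDH, PKM, LDHA, and LDHB, and at most 4 called genes are named for each neighbouring list. The genes, lists, and tests were chosen with earlier results of these data known. Exon overlaps used GENCODE v44.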

Additional observations from a re-analysis of the deposited data

How the results depend on the processing

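At 24 h the counts of called genes among the 31 stayed within 1.5 times of the reported ones under every alternative, and the 3 calls of PFKFB3, LDHA, and SLC16A3 held in all of them. Over all genes at 24 h, the 398 higher and 549 lower became 126 to 647 and 233 to 882 with a library left out. At 48 h, 1 gene was called lower with Arg, against 4 without the filter on low counts and 2 with the replicate block. Of all genes, 0.117% were lower, against 1.37% without the filter and 0.968% with the block. With a library left out, 1 to 8 genes of the set were lower and 0 to 2 higher. Of all genes, 0.0336% to 8.17% were then lower and 0 to 7.76% higher. Over time in control, 2 genes rose, against 4 with library size only, 1 without the filter, and 4 with the replicate block. Of all genes, 9.9% rose, against 12.8%, 5.94%, and 13.6%. With a library left out, 0 to 4 rose and the 7 that fell became 0 to 7. Of all genes, 2.85% to 10.7% then rose and 2.74% to 11.6% fell. With Arg the 6 that rose became 2 to 5 with a library left out, and 14.3% of all genes became 10.4% to 12.4%. For the interaction, 0 genes were lower and 1 (LDHB) was without the filter, where 0.124% of all genes were. The cause of these shifts was not tested.

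The correlations of same-letter deviations lay between −0.115 and 0.0401 for Arg at 24 h, −0.0418 and 0.0701 for Arg at 48 h, 0.0691 and 0.225 for time in control, and −0.0502 and −0.0328 for time with Arg. In no comparison were all 3 pairs over 0.1, and of 6 libraries 1, 3, 4, and 0 correlated best with their own letter. The main fits used no block. Over time in control all 3 correlations were above 0, so whether the letters mark a shared origin there was not settled. With the replicate block the 4 calls at 24 h were the same genes, where 3.82% of all genes were lower. SLC16A3 joined LDHB at 48 h, where the share of all genes called lower went from 0.117% to 0.968%. Over time in control, 4 rose and 10 fell (13.6% and 14.4% of all genes, against 9.9% and 10% without the block). With Arg, 4 rose and 4 fell over time (13.4% and 12.9% of all genes).

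Of 2170 refitted log2 fold changes, 84 changed sign, and 0 of these were past the threshold in either fit. Among the genes with values in every library, leaving out a library gave log2 fold changes with Arg at 24 h from −0.34 to 0.28 for PFKFB4, from −0.068 to 0.014 for ENO1, and from −0.23 to 0.042 for PDK2. At 48 h they ran from −0.014 to 0.13 for SLC2A1, from −0.044 to 0.10 for HK2, from −0.047 to 0.013 for PFKP, from −0.013 to 0.12 for PFKFB3, from −0.056 to 0.015 for PKM, and from −0.0019 to 0.045 for PDHA1. The log2 differences of isoform ratios ran from −0.062 to 0.13 for HK2 to HK1 at 24 h, from −0.14 to 0.043 for ENO2 to ENO1 at 24 h, and from −0.18 to 0.020 at 48 h.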
